A study of Homo sapiens with 16 samples.

Results

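Among the 35810 genes with transcripts, 38 genes of glucose uptake, glycolysis, lactate handling, gluconeogenesis and the hypoxia response were followed as a set. They were chosen by name and role, with earlier results of these data known. A filter on low counts left 36 of them among the 16705 genes tested. The remaining 2 were PCK1, the cytosolic enzyme that commits carbon to gluconeogenesis, with 0 to 3 reads in any library, and CA9, a cell surface carbonic anhydrase, with 0 to 9 reads. RNA came from pancreatic progenitors at day 19 of differentiation, made from the human embryonic stem cell line SA121 with the NGN3-GFP reporter, and the reporter is carried by every group, controls included. Libraries were made before treatment (control 0 h, n = 3), after 24 h of DMSO (control 24 h, n = 2), and in 0.5 µM latrunculin B (LatB), an agent that depolymerises actin, with 3 libraries each at 3, 6 and 24 h and 2 at 12 h. The control 0 h libraries also carry the DMSO tag in their labels, so whether they saw DMSO is not certain. All libraries come from 1 cell line, and nothing says that replicates were separate differentiations, so p-values measure the spread between these libraries, which may be technical.

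Glucose enters cells through transporters of the GLUT family, is phosphorylated by hexokinases, and is split and oxidised by glycolysis to pyruvate, which lactate dehydrogenase converts to lactate for export by monocarboxylate transporters. Hypoxia-inducible factor (HIF) is kept low in oxygen because prolyl hydroxylases mark its alpha subunit for degradation. When oxygen falls, the stabilised factor binds short elements near many glycolytic genes and activates them, so the pathway and the hypoxia response share members. HIF1A is controlled mainly at the level of its protein, which RNA does not measure. In the pancreas, glucose transport and phosphorylation also set how beta cells sense glucose.

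The libraries held 23609727 to 33515398 estimated reads. Of 12 pancreatic progenitor markers, 11 were above 1 CPM (counts relative to library size, scaled between libraries by the TMM method) in every library, and PTF1A stayed under 1 CPM in all 16. Summed progenitor markers ran from 4844 to 5070 CPM in control 0 h and from 4477 to 5461 CPM in LatB 24 h. Summed endocrine markers ran from 38.6 to 48.1 CPM in control 0 h and from 75.4 to 88.7 CPM in control 24 h. In LatB 24 h the endocrine sum ran from 122 to 377 CPM. Summed liver markers (7 genes) ran from 1299 to 1531 CPM in control 0 h and 1831 to 1864 CPM in control 24 h. With LatB they ran from 2280 to 2498 CPM at 6 h and 2306 to 2886 CPM at 12 h. The 4 summed pluripotency markers ran from 387 to 416 CPM in control 0 h and from 202 to 258 CPM at 3 h. Nearly all of that sum was LIN28A, at 413.5, 406.1 and 384.7 CPM in control 0 h and 246.9, 255.5 and 199.6 CPM at 3 h. NANOG was under 1 CPM throughout, and SOX2 in both of these groups. POU5F1 was 1.40, 1.91 and 1.06 CPM in control 0 h and 1.85, 1.16 and 1.94 CPM at 3 h. Some libraries stood apart. The second LatB 12 h library held 1059 CPM of 7 summed stromal markers, against 221 CPM in the first. It also held 3793 CPM of summed progenitor markers, against 4884 CPM in the first. For 4 summed endothelial markers it held 40.5 against 9.62 CPM, and for 3 intestinal markers 100 against 203 CPM. The third LatB 3 h library was the highest of its group for 15 of 17 glycolytic and lactate dehydrogenase genes, while it was the highest for 34.8% of all genes tested. The third LatB 6 h library was likewise the highest for 15 of 17, and for 35.2% of all genes, and the first LatB 24 h library was the highest for 0 of 17. The part of cell composition in the results below was not tested, and in bulk RNA fewer cells of a type and less RNA per cell cannot be told apart.

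The glucose transporters had the widest changes at 12 h and 24 h. SLC2A1 rose and SLC2A3 fell, while the HIF targets moved in different directions. Of the 15 enzymes from hexokinase to pyruvate kinase, 6 rose at 3 h, 7 rose and 1 fell at 6 h, 3 rose and 2 fell at 12 h, and 9 rose and 2 fell at 24 h. At 3 h of LatB against control 0 h, 15 of the 36 members tested were higher and 1 was lower at an edgeR adjusted p under 0.05, which is 41.7% and 2.78%, while 16.8% of all genes tested were called higher and 14.7% lower. At 6 h, 16 were higher and 3 lower, which is 44.4% and 8.33%, beside 22.9% and 20.4% of all genes. At 12 h, 9 were higher and 4 lower, which is 25.0% and 11.1%, beside 19.1% and 16.8%. At 24 h against control 24 h, 13 were higher and 6 lower, which is 36.1% and 16.7%, beside 21.9% and 18.8%. The median log2 fold change of the members was 0.21, 0.28, 0.13 and 0.15 at 3, 6, 12 and 24 h, where the median of all genes lay between -0.01 and 0.01. The first 3 comparisons share the control 0 h libraries. No control was made at 3, 6 or 12 h, so drug and elapsed time cannot be told apart at those times. Between the controls, 0 of 36 members were called by edgeR, 3 had an unadjusted p under 0.05, and 0.251% of all genes were called in either direction; DESeq2, run as another tool, called 0 members too.

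**Figure D1:**
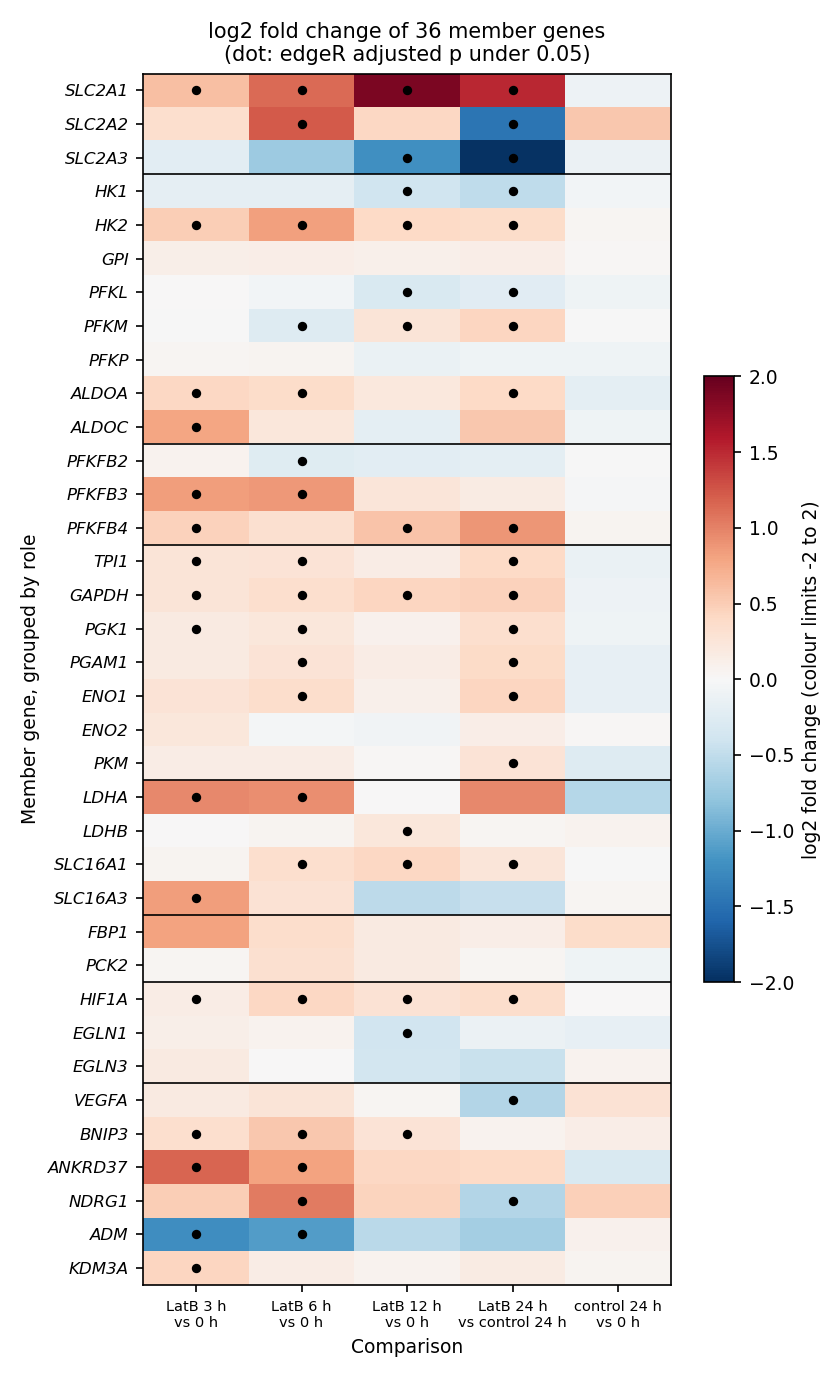
Log2 fold change (colour) of the 36 tested genes (rows, grouped by role) in 5 comparisons (columns), with a dot where the edgeR adjusted p was under 0.05. SLC2A1 is red in all 4 drug comparisons, from 0.60 to 1.89, SLC2A3 turns blue by 24 h, at -1.98, and no dot stands in the control column.

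The call count at 3 h depended on single libraries: 8 members were called without the third LatB 3 h library and 7 without the second control 0 h library. At 6 h it was 12 without that control library, and at 24 h it was 10 without the first control 24 h library. Counts without the second LatB 12 h library came to 14 at 12 h.

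SLC2A1, which encodes the widely expressed high-affinity transporter GLUT1, lies on the minus strand at chr1:42925353-42958893 (GRCh38, GENCODE). Its level was 49.8, 41.9 and 48.9 CPM in the control 0 h libraries and 41.7 and 45.9 CPM in control 24 h. With LatB it was 66.1, 68.4 and 77.8 CPM at 3 h, 92.1, 94.0 and 121.5 CPM at 6 h, 132.6 and 212.9 CPM at 12 h, and 126.0, 116.4 and 132.9 CPM at 24 h. Every LatB library lay above every control library, and every library of 12 h and 24 h but the 24 h replicate at 116.4 CPM lay above all those of 6 h. The log2 fold change was 0.60 ± 0.15 (SE) at 3 h (edgeR adjusted p = 0.00932), 1.13 ± 0.15 at 6 h (edgeR adjusted p = 6.52e-05), 1.89 ± 0.17 at 12 h (edgeR adjusted p = 3.28e-06) and 1.51 ± 0.18 at 24 h (edgeR adjusted p = 3.11e-05). Without the second LatB 12 h library the value at 12 h was 1.5. At 3 h the call was lost without the second control 0 h library (edgeR adjusted p = 0.0539).

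SLC2A3 encodes GLUT3, the high-affinity transporter known from neurons and early embryos, on the minus strand at chr12:7919230-8019007. It stood at 198.0, 184.1 and 175.5 CPM in control 0 h and at 160.4 and 183.2 CPM in control 24 h. The LatB libraries held 134.9, 155.2 and 194.1 CPM at 3 h, 78.3, 110.9 and 148.8 CPM at 6 h, 45.0 and 112.7 CPM at 12 h, and 51.7, 36.1 and 42.9 CPM at 24 h. At 3 h the LatB libraries overlapped the controls, and from 6 h on they all lay below them. Its log2 fold change was -0.20 at 3 h (edgeR adjusted p = 0.627) and -0.72 at 6 h (edgeR adjusted p = 0.0515), neither past the threshold. It fell by 1.23 ± 0.32 on the log2 scale at 12 h (edgeR adjusted p = 0.00983) and by 1.98 ± 0.31 at 24 h (edgeR adjusted p = 0.000275). Without the second LatB 12 h library, which was the high one of that pair, the value at 12 h was -2.05 (edgeR adjusted p = 0.00042), and without the first it was -0.72 and no longer called (edgeR adjusted p = 0.0664).

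SLC2A2 encodes GLUT2, the low-affinity transporter of liver and of rodent beta cells, and was near the detection limit at 13 to 68 reads per library. Control 0 h held 0.96, 0.74 and 1.19 CPM and control 24 h held 1.66 and 1.13 CPM. LatB libraries held 1.31, 1.01 and 1.3 CPM at 3 h, 1.56, 2.57 and 2.57 CPM at 6 h, 2.06 and 0.54 CPM at 12 h and 0.68, 0.40 and 0.43 CPM at 24 h. The 6 h libraries lay above control 0 h and the 24 h libraries below control 24 h. The log2 fold change was 1.22 ± 0.40 at 6 h (edgeR adjusted p = 0.0257) and -1.46 ± 0.46 at 24 h (edgeR adjusted p = 0.0216). Both calls were lost in some alternatives, the one at 24 h without the first control 24 h library (edgeR adjusted p = 0.17).

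**Figure D2:**
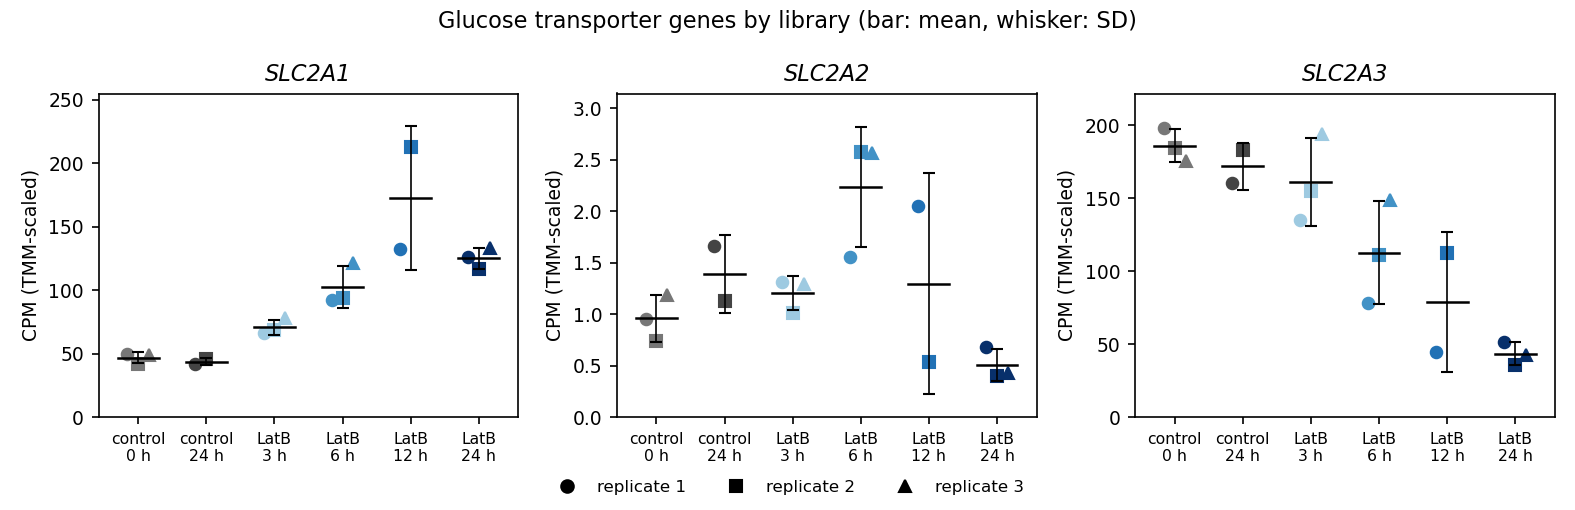
CPM (vertical axis, from 0) of the 3 glucose transporter genes in each library, by group, with marker shape for the replicate, a bar for the mean and a whisker for the SD. SLC2A1 rises from a mean of 46.9 CPM in control 0 h to 125 CPM at 24 h of LatB, SLC2A3 goes from 186 to 43.6 CPM, and SLC2A2 stays under 3 CPM.

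Per transcript length, in TPM, the mix of transporters shifted. SLC2A1 made up 25.1% ± 0.90 (SD, n = 3) of the summed TPM of the 3 transporters in control 0 h and 23.8% ± 1.6 (n = 2) in control 24 h. With LatB its share was 35.5% ± 2.8 (n = 3) at 3 h, 53.2% ± 5.3 (n = 3) at 6 h, 74.7% ± 7.2 (n = 2) at 12 h and 77.3% ± 3.8 (n = 3) at 24 h. SLC2A3 moved the other way, from 74.3% ± 1.1 in control 0 h to 22.4% ± 3.7 at 24 h, and SLC2A2 stayed at 0.17% to 1.55% in every library. The summed TPM of all 3 was 0.0119% ± 0.0012 of all TPM in control 0 h and 0.0101% ± 0.0010 in LatB 24 h, with ranges that overlapped, while the ranges of the SLC2A1 share did not overlap. These shares are descriptions without a test.

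Hexokinases trap glucose in the cell. HK2, the inducible form, was called higher at all 4 times, by 0.49 ± 0.11 at 3 h, 0.83 ± 0.11 at 6 h, 0.40 ± 0.12 at 12 h and 0.37 ± 0.13 at 24 h on the log2 scale (edgeR adjusted p from 6.26e-05 to 0.0308). Its levels were 36.4, 32.9 and 36.7 CPM in control 0 h, 52.2, 61.9 and 74.0 CPM at 6 h of LatB and 46.3, 46.9 and 47.7 CPM at 24 h. The HK2 call at 12 h was lost without the first LatB 12 h library (0.27, edgeR adjusted p = 0.188) or the second control 0 h library, and that at 24 h without either control 24 h library (edgeR adjusted p = 0.0885 and 0.162) or without replicate 2 or 3 of LatB 24 h. HK1, the constitutive form, fell later, by 0.39 ± 0.10 at 12 h (edgeR adjusted p = 0.00702) and 0.50 ± 0.10 at 24 h (edgeR adjusted p = 0.00104). Without the first LatB 12 h library the HK1 value at 12 h was -0.20 and the call was lost (edgeR adjusted p = 0.0673). HK1 was 91.0 and 95.1 CPM in control 24 h and 64.1, 69.0 and 63.9 CPM in LatB 24 h, with no overlap. In TPM, HK2 therefore went from 18.8% ± 0.56 (SD, n = 3) of the pair in control 0 h to 31.8% ± 1.6 (n = 3) in LatB 24 h.

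The phosphofructokinase step, the main point of control of the pathway, also changed its mix. PFKM, the muscle-type subunit, went down and then up. It stood at 71.7, 79.9 and 71.1 CPM in control 0 h, at 60.7, 62.6 and 63.9 CPM at 6 h of LatB and between 95 and 103.1 CPM in the 3 libraries of 24 h. It fell by 0.25 ± 0.06 on the log2 scale at 6 h (edgeR adjusted p = 0.00545) and rose by 0.26 ± 0.07 at 12 h (edgeR adjusted p = 0.00941) and 0.43 ± 0.07 at 24 h (edgeR adjusted p = 0.000371). PFKL, the liver-type subunit, fell by 0.30 ± 0.07 at 12 h (edgeR adjusted p = 0.00559) and 0.23 ± 0.07 at 24 h (edgeR adjusted p = 0.0182), and both calls were lost in alternatives, at 12 h without the second LatB 12 h library (edgeR adjusted p = 0.061) and at 24 h without the first control 24 h library (-0.17, edgeR adjusted p = 0.2) or without replicate 1 or 3 of LatB 24 h. The PFKM call at 12 h was lost without the first LatB 12 h library (0.13, edgeR adjusted p = 0.146). PFKP, the platelet-type subunit, was not called at any time, with log2 fold changes between -0.14 and 0.06. In TPM, PFKM took 40.1% ± 3.3 (SD, n = 3) of the 3 subunits in control 0 h and 52.6% ± 1.1 (n = 3) in LatB 24 h, and PFKL 49.1% ± 2.3 and 38.2% ± 0.73. PFKM shares its locus with SENP1 on the opposite strand, and since no source used here states whether the counting used strand, reads of such partners cannot be told apart.

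**Figure D3:**
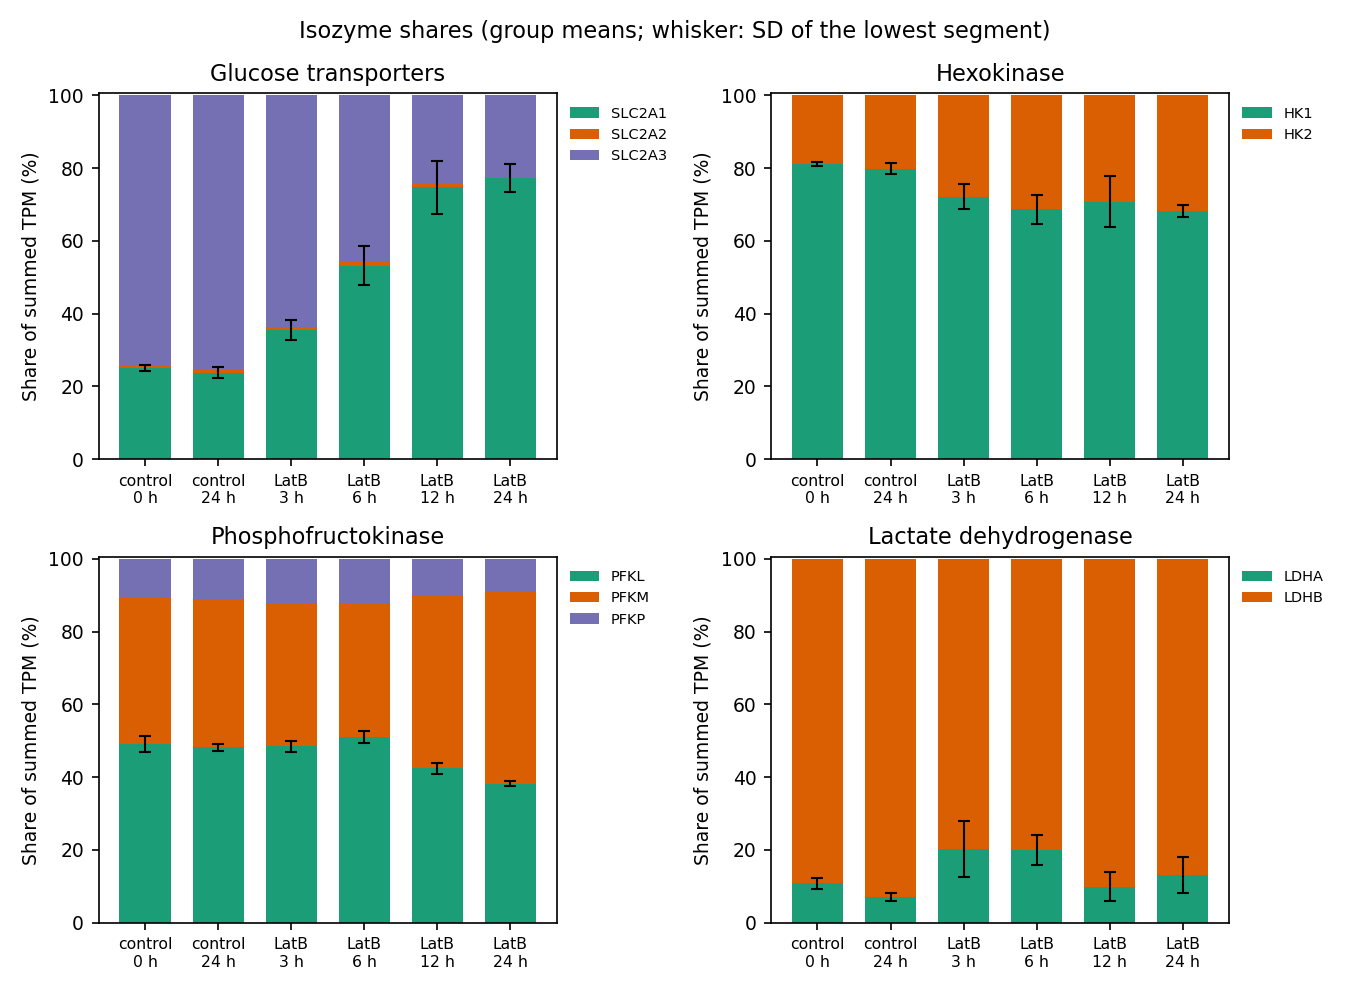
Mean share of summed TPM (vertical axis, percent) of each isozyme gene at 4 steps, by group, with the SD of the lowest segment as a whisker. SLC2A1 goes from 25.1% to 77.3% of the transporters, HK1 from 81.2% to 68.3% of the hexokinases and PFKM from 40.1% to 52.6% of the phosphofructokinases between control 0 h and LatB 24 h, and LDHA is wide in its spread at 3 h.

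The PFKFB enzymes make and break fructose-2,6-bisphosphate, an activator of phosphofructokinase. PFKFB3, the form with the strongest kinase side, rose early and was back near control by 12 h. Its libraries held 31.5, 31.6 and 29.9 CPM in control 0 h, 47.3, 50.2 and 69.1 CPM at 3 h, 49.5, 52.2 and 67.5 CPM at 6 h and 34.3, 29.7 and 38.3 CPM at 24 h. The log2 fold change was 0.84 ± 0.15 at 3 h (edgeR adjusted p = 0.000653) and 0.86 ± 0.15 at 6 h (edgeR adjusted p = 0.000363), and 0.24 and 0.16, not called, at 12 h and 24 h. Without the third LatB 3 h library the value at 3 h was 0.63 (edgeR adjusted p = 0.00297). PFKFB4 rose by 0.47 ± 0.14 at 3 h (edgeR adjusted p = 0.025), 0.58 ± 0.16 at 12 h (edgeR adjusted p = 0.0131) and 0.89 ± 0.16 at 24 h (edgeR adjusted p = 0.000802), from 7.37 ± 0.27 CPM (SD, n = 2) in control 24 h to 13.6 ± 3.2 CPM (n = 3). Its value at 3 h lost the call without the third LatB 3 h library (edgeR adjusted p = 0.135). PFKFB2, the heart-type form, fell by 0.25 ± 0.08 at 6 h (edgeR adjusted p = 0.0173) and was not called at the other times. That call was lost without the second control 0 h library (edgeR adjusted p = 0.0661) or the second LatB 6 h library. With an offset for transcript length the PFKFB2 value at 6 h was -0.01 (edgeR adjusted p = 0.964), so the fall was not seen there.

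The enzymes from aldolase to pyruvate kinase carry most of the RNA of the pathway, led by GAPDH at a median of 1802 TPM over the 16 libraries, with ENO1 at 548 TPM, PKM at 384 TPM, TPI1 at 383 TPM and ALDOA at 275 TPM. GAPDH, which oxidises glyceraldehyde-3-phosphate, rose in all 4 comparisons, by 0.26 ± 0.06, 0.34 ± 0.06, 0.44 ± 0.07 and 0.46 ± 0.07 on the log2 scale at 3, 6, 12 and 24 h (edgeR adjusted p from 0.000296 to 0.00768). Its libraries lay between 1129 and 1238 CPM in control 0 h, at 1615 and 1612 CPM in LatB 12 h and between 1434 and 1597 CPM in LatB 24 h. At 3 h the GAPDH call was lost without the third LatB 3 h library (edgeR adjusted p = 0.0591). Among the 7 genes of the lower pathway, 3 rose at 3 h, 5 at 6 h, 1 at 12 h and 6 at 24 h, and 0 fell. The shares called higher were 42.9%, 71.4%, 14.3% and 85.7%, beside 16.8%, 22.9%, 19.1% and 21.9% of all genes. Without the third LatB 3 h library TPI1 and PGK1 lost the call at 3 h too, and without the third LatB 6 h library TPI1, PGK1 and ENO1 lost it at 6 h.

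At 24 h the 6 were TPI1, GAPDH, PGK1, PGAM1, ENO1 and PKM, with log2 fold changes between 0.28 and 0.46. ALDOA, the main aldolase, rose at 3, 6 and 24 h by 0.37 to 0.41. The ALDOA call at 6 h was lost without the third LatB 6 h library (0.28, edgeR adjusted p = 0.0784) or the second control 0 h library (edgeR adjusted p = 0.0576). The gain at 24 h was measured against control 24 h, where these genes sat slightly below control 0 h: PKM was 349 ± 13 CPM (SD, n = 2) there and 418 ± 16 CPM (n = 3) in control 0 h, a log2 difference of -0.26 that was not called (edgeR adjusted p = 0.246). Against control 0 h the PKM value at 24 h of LatB was 0.02 (edgeR adjusted p = 0.885), and ALDOA at 0.20 (edgeR adjusted p = 0.139) and ENO1 at 0.26 (edgeR adjusted p = 0.0625) were not called either. All 3 also lost the call without the first control 24 h library (edgeR adjusted p from 0.0801 to 0.118). GPI and ENO2, the neuronal enolase, were not called at any time. ALDOC, the brain aldolase, was called only at 3 h, at 0.79 ± 0.28 (edgeR adjusted p = 0.0437), with 4.51, 4.58 and 8.42 CPM in the 3 LatB libraries and 3.43, 2.75 and 3.99 CPM in control 0 h. That call was lost without the third library (0.41, edgeR adjusted p = 0.273).

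Transcripts with the PKM2 exon (chr15:72202454-72202620) made up 98.4% to 99.6% of the TPM of transcripts with either that exon or the mutually exclusive PKM1 exon (chr15:72203022-72203188) in every library. Group means lay between 98.5% ± 0.25 (SD, n = 2) in LatB 12 h and 99.4% ± 0.20 (n = 3) in LatB 24 h, so no switch of splice form was seen at this depth. The 15 genes from hexokinase to pyruvate kinase together with LDHA and LDHB, 17 in all, summed to 0.455% ± 0.023 (SD, n = 3) of all TPM in control 0 h, 0.422% ± 0.016 (n = 2) in control 24 h and 0.524% ± 0.022 (n = 3) in LatB 24 h.

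LDHA, which turns pyruvate to lactate and is a classical HIF target, varied widely between replicates. It was 69.5, 48.9 and 68.1 CPM in control 0 h and 44.7 and 39.1 CPM in control 24 h. With LatB it was 76.7, 104.1 and 180.7 CPM at 3 h, 87.5, 110.4 and 157.3 CPM at 6 h, 77.1 and 48.4 CPM at 12 h and 51.9, 109.4 and 83.0 CPM at 24 h. All LatB libraries of 3 h and 6 h lay above control 0 h, and those of 12 h overlapped it. Those of 24 h lay above control 24 h but overlapped control 0 h. The log2 fold change was 0.96 ± 0.33 at 3 h (edgeR adjusted p = 0.0428), 0.93 ± 0.33 at 6 h (edgeR adjusted p = 0.0373) and 0.01 at 12 h (edgeR adjusted p = 0.988). At 24 h it was 0.96, not past the threshold (edgeR adjusted p = 0.0611). Leaving out the third LatB 3 h library gave 0.52 at 3 h (edgeR adjusted p = 0.261), and leaving out the third LatB 6 h library gave 0.65 at 6 h (edgeR adjusted p = 0.176). The LDHA call was lost in 7 of 15 alternatives at 3 h and in 6 of 15 at 6 h. At both times these included leaving out any single control 0 h library. Without the first LatB 24 h library the value at 24 h was 1.2 (edgeR adjusted p = 0.0244). With control 0 h as the reference it was 0.39 (edgeR adjusted p = 0.369).

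LDHB, the form that favours pyruvate, was far more abundant, at a median of 714 TPM against 111 TPM for LDHA, and was called higher at 12 h alone, by 0.23 ± 0.06 (edgeR adjusted p = 0.0063), a call lost without the second LatB 12 h library (0.14, edgeR adjusted p = 0.0844). LDHA took 10.8% ± 1.6 (SD, n = 3) of the summed TPM of the pair in control 0 h, 20.3% ± 7.7 (n = 3) at 3 h, 20.0% ± 4.2 (n = 3) at 6 h, 9.96% ± 4.0 (n = 2) at 12 h and 13.1% ± 4.9 (n = 3) at 24 h. SLC16A1, which encodes the broadly expressed transporter MCT1, rose by 0.33 ± 0.07 at 6 h, 0.42 ± 0.07 at 12 h and 0.24 ± 0.07 at 24 h (edgeR adjusted p from 0.000715 to 0.0203). Its call at 24 h was lost without the first control 24 h library (edgeR adjusted p = 0.199) or the first LatB 24 h library. With an offset for transcript length the SLC16A1 calls at 6, 12 and 24 h were all lost (edgeR adjusted p = 0.133, 0.174 and 0.102). The same calls were lost with limma-trend on log2(TPM + 1). SLC16A3 encodes MCT4, the lactate exporter of glycolytic cells, and rose at 3 h by 0.84 ± 0.23 (edgeR adjusted p = 0.0122). SLC16A3 was 10.8, 8.81 and 12.2 CPM in control 0 h, 13.8, 16.3 and 26.8 CPM at 3 h, and 6.01, 9.58 and 8.15 CPM at 24 h, against 12.3 and 9.58 CPM in control 24 h. The 24 h libraries were no higher than the controls. Its call at 3 h was lost without the third LatB 3 h library (0.49, edgeR adjusted p = 0.0781). SLC16A3 overlaps CSNK1D on the opposite strand, which had a mean of 154 TPM.

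Gluconeogenic genes were low. PCK2, the mitochondrial enzyme, had a median of 5.78 TPM and FBP1, the fructose-1,6-bisphosphatase, 0.573 TPM, and neither was called in any of the comparisons. For PCK1, at 0 to 3 reads, no fold is given.

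HIF1A, the oxygen-regulated subunit, is on the plus strand at chr14:61695513-61748259. It held 181.9, 163.4 and 179.4 CPM in control 0 h and 171.2 and 182.2 CPM in control 24 h. LatB libraries held 191.5, 201.0 and 186.1 CPM at 3 h, 226.0, 229.5 and 240.3 CPM at 6 h, 205.6 and 221.7 CPM at 12 h and 226.7, 223.4 and 227.7 CPM at 24 h. Every LatB library lay above every control library. The rise was 0.41 ± 0.05 on the log2 scale at 6 h (edgeR adjusted p = 3.23e-05), 0.29 ± 0.06 at 12 h (edgeR adjusted p = 0.00153) and 0.35 ± 0.06 at 24 h (edgeR adjusted p = 0.000328). At 3 h it was 0.14 ± 0.05 (edgeR adjusted p = 0.0497), a call that 14 of 15 alternatives lost. Of the prolyl hydroxylases, EGLN1, the main oxygen sensor, fell by 0.39 ± 0.06 at 12 h (edgeR adjusted p = 0.000172), from 81.1 ± 2.7 CPM (SD, n = 3) to 62.0 ± 1.1 CPM (n = 2), and EGLN3, itself a HIF target, was not called at any time (log2 fold changes from -0.44 to 0.19).

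The HIF targets did not move together. ANKRD37, an ankyrin-repeat protein gene used as a hypoxia marker, rose at 3 h and 6 h. Its libraries held 1.67, 1.14 and 1.82 CPM in control 0 h, 3.42, 3.00 and 3.99 CPM at 3 h, 2.63, 2.50 and 2.94 CPM at 6 h, 2.54 and 1.59 CPM at 12 h and 1.67, 1.66 and 1.56 CPM at 24 h. The values of 3 h and 6 h lay above all controls. The log2 fold change was 1.17 ± 0.21 at 3 h (edgeR adjusted p = 0.000982) and 0.80 ± 0.22 at 6 h (edgeR adjusted p = 0.0086), then 0.41 and 0.39, not called. ANKRD37 overlaps UFSP2 on the opposite strand, at a mean of 29.9 TPM.

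ADM, which encodes the peptide hormone adrenomedullin and is a HIF target in many cells, went the other way. It was 29.0, 28.7 and 28.6 CPM in control 0 h and 29.9 and 30.9 CPM in control 24 h, and with LatB 10.6, 12.4 and 13.3 CPM at 3 h, 12.6, 12.6 and 14.7 CPM at 6 h, 11.2 and 28.1 CPM at 12 h and 23.9, 13.8 and 19.1 CPM at 24 h. All 11 LatB libraries lay below all 5 controls, the second 12 h library by little. ADM fell by 1.25 ± 0.26 on the log2 scale at 3 h (edgeR adjusted p = 0.00213) and by 1.11 ± 0.26 at 6 h (edgeR adjusted p = 0.00315), calls that every alternative kept. At 12 h the value was -0.54 (edgeR adjusted p = 0.158), or -1.35 without the second LatB 12 h library (edgeR adjusted p = 0.000883), and at 24 h it was -0.69 (edgeR adjusted p = 0.0599).

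NDRG1, a stress-responsive gene induced in hypoxia, peaked at 6 h. It was 37.0, 32.8 and 36.4 CPM in control 0 h and 57.0 and 41.6 CPM in control 24 h. With LatB it was 42.7, 50.7 and 55.2 CPM at 3 h, 64.5, 70.7 and 82.6 CPM at 6 h, 63.5 and 33.6 CPM at 12 h and 30.7, 37.0 and 30.7 CPM at 24 h. The 6 h libraries lay above all controls and the 24 h libraries below control 24 h, though not below control 0 h. The log2 fold change was 1.04 ± 0.20 at 6 h (edgeR adjusted p = 0.000784) and -0.59 ± 0.21 at 24 h (edgeR adjusted p = 0.0422). With control 0 h as the reference the value at 24 h was -0.11 (edgeR adjusted p = 0.687), and without the first control 24 h library -0.34 (edgeR adjusted p = 0.384).

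VEGFA, the vascular growth factor, was among the most abundant members at a median of 288 TPM, and was lower only at 24 h, by 0.58 ± 0.15 on the log2 scale (edgeR adjusted p = 0.00588). It held 604.5 and 504.9 CPM in control 24 h and 365.4, 367.7 and 377.6 CPM in LatB 24 h. With control 0 h as the reference the value was -0.30 and not called (edgeR adjusted p = 0.086). BNIP3, a mitophagy receptor gene, rose by 0.34 ± 0.07 at 3 h, 0.54 ± 0.07 at 6 h and 0.28 ± 0.07 at 12 h (edgeR adjusted p from 2.85e-05 to 0.0103). The BNIP3 call at 12 h was lost without the first LatB 12 h library (edgeR adjusted p = 0.102) or the second control 0 h library. BNIP3 is uncertain, because transcripts named as its pseudogenes had 14.4% to 33.8% of its TPM. KDM3A, a histone demethylase gene, rose at 3 h by 0.43 ± 0.06 (edgeR adjusted p = 0.000127), with 110.4, 103.4 and 102.4 CPM against 76.6, 74.8 and 83.6 CPM, and was not called later.

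**Figure D4:**
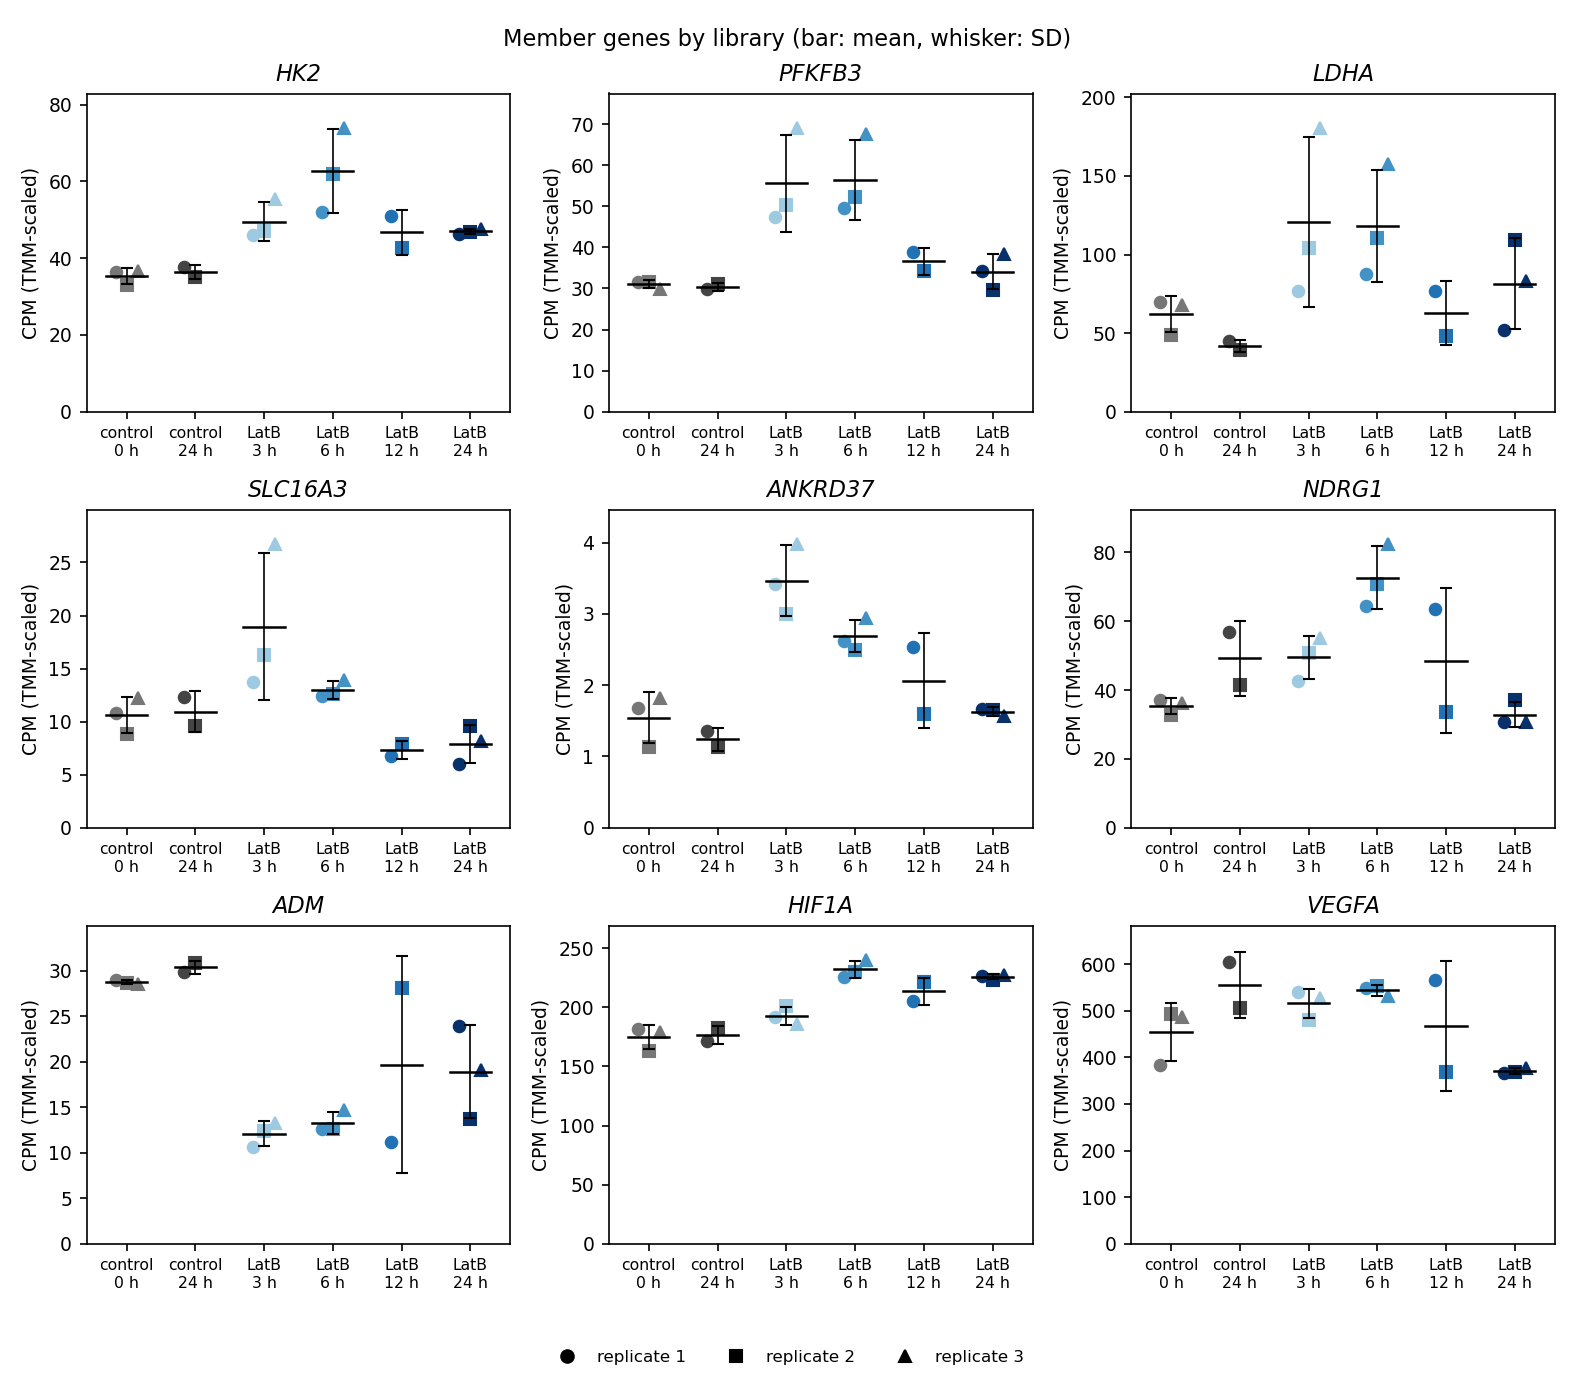
CPM (vertical axes, from 0) of 9 genes in each library, by group, with marker shape for the replicate, a bar for the mean and a whisker for the SD. PFKFB3, ANKRD37 and NDRG1 are high at 3 h or 6 h and at 24 h lie near control 0 h, with NDRG1 below control 24 h, ADM is low at 3 h and 6 h, and LDHA and SLC16A3 have 1 library at 3 h well above the other 2, at 180.7 and 26.8 CPM.

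The sequence just before the start site is shown for 4 members that differed in response. SLC2A1 rose, and LDHA was higher at 3 h and 6 h with calls that some alternatives lost. ANKRD37 and ADM moved furthest up and down at 3 h. Each run is the 250 bases before a RefSeq start (GRCh38.p14), read 5′ to 3′ on the gene's strand. Capitals mark matches, on either strand, to the core of the hypoxia response element, ACGTG or GCGTG, and a CACGTG counts on each strand. The windows are chr1:42958869-42959118 (minus strand) for SLC2A1, chr11:18394313-18394562 (plus) for LDHA, which has 2 starts in the table of which the first is shown, chr4:185396591-185396840 (plus) for ANKRD37 and chr11:10304823-10305072 (plus) for ADM.
SLC2A1: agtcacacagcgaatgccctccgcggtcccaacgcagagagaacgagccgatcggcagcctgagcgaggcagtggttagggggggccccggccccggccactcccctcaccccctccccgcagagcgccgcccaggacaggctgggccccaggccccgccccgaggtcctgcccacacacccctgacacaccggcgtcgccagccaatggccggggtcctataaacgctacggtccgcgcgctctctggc
LDHA: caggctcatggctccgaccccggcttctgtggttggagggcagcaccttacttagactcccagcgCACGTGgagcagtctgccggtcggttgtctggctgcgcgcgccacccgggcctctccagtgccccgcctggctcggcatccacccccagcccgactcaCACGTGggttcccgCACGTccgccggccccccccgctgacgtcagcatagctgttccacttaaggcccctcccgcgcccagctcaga
ANKRD37: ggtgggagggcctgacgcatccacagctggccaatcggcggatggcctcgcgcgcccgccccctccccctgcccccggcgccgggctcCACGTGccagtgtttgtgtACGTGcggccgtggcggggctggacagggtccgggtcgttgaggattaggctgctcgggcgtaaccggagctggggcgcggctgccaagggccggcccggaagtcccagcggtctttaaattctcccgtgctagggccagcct
ADM: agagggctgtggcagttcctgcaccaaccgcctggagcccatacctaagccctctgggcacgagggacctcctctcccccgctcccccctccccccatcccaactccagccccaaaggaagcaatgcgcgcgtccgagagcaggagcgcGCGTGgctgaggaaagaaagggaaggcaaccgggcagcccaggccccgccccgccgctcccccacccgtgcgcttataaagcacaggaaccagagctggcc
These windows held 0, 5, 3 and 1 matches. LDHA has 2 copies of CACGTG and a further CACGT, and ANKRD37 has 1 CACGTG and 1 further match close behind it. Of the 38 genes, 32 had a window in the table, and 25 of these (78.1%) held a match in at least 1 window, while 47.4% of all 27305 gene names did; over single windows it was 57.6% of 59 against 43.2% of 35116. The 6 genes with no window were NDRG1, SLC2A3, VEGFA, SLC16A1, PFKFB2 and PCK1. A match is a string of letters and no measured binding.

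Time was compared directly between drug groups. From 3 h to 6 h of LatB, 4 members rose and 3 fell (edgeR adjusted p under 0.05). This is 11.1% and 8.33% of those tested, beside 11.9% and 10.3% of all genes, so neither share was above that of all genes. SLC2A1 went up by 0.54 ± 0.15 and HIF1A by 0.27 ± 0.05, HK2 by 0.34 ± 0.11 and SLC16A1 by 0.27 ± 0.07, while PFKM, PFKFB2 and KDM3A fell by 0.25, 0.32 and 0.28. From 6 h to 24 h, 2 rose and 12 fell, which is 5.56% and 33.3%, beside 19% and 18.9% of all genes. PFKM rose by 0.67 ± 0.06 (edgeR adjusted p = 4.43e-06) and PFKFB4 by 0.62 ± 0.14. The 12 were SLC2A2, SLC2A3, HK1, HK2, PFKL, PFKFB3, SLC16A3, EGLN1, VEGFA, BNIP3, ANKRD37 and NDRG1, with log2 differences from -2.14 to -0.26. With no scaling between libraries this split was 7 higher and 9 lower, and the median of all genes moved to 0.14, so the direction of the small changes there depends on the scaling.

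The effect at 24 h, against its own control, was also tested against the effect at 3 h, which was taken against control 0 h and so mixes drug and elapsed time. It differed for 10 of 36 members, 2 with a higher and 8 with a lower effect at 24 h. This is 5.56% and 22.2%, beside 14.6% and 13.4% of all genes. SLC2A1 had a larger effect at 24 h, by 0.92 ± 0.23 on the log2 scale (edgeR adjusted p = 0.00979), and PFKM by 0.43 ± 0.09 (edgeR adjusted p = 0.00411). The lower ones were SLC2A2 at -1.80 ± 0.62 (edgeR adjusted p = 0.0441), SLC2A3 at -1.78 ± 0.42 (edgeR adjusted p = 0.0067), SLC16A3 at -1.304 ± 0.34 (edgeR adjusted p = 0.0121), NDRG1 at -1.07 ± 0.29 (edgeR adjusted p = 0.0142), VEGFA, PFKFB3, KDM3A and EGLN1. This count was 2 without the first control 24 h library and 6 without the second, and with no scaling the split was 7 higher and 5 lower.

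Within groups, libraries with more LDHA had more of other glycolytic RNA. Over the deviations of the 16 libraries from their group means, in log2 CPM, ENO1 had a Pearson r of 0.93 with LDHA, ALDOC 0.90, TPI1 0.90, ALDOA 0.89 and PGAM1 0.86, while SLC2A1 had 0.12, SLC2A3 -0.01 and HIF1A -0.02. A value of at least 0.8 was reached by 8 of 35 other members and by 1.42% of the other 16704 genes tested. The points share library and scaling, genes are not independent replicates, and this is a description. In LatB 3 h, all 17 glycolytic and lactate dehydrogenase genes were under the group mean in the first library and 15 were above it in the third, and in LatB 24 h all 17 were under it in the first library. The first LatB 24 h library also had the lowest summed endocrine markers of its group, at 122 CPM.

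**Figure D5:**
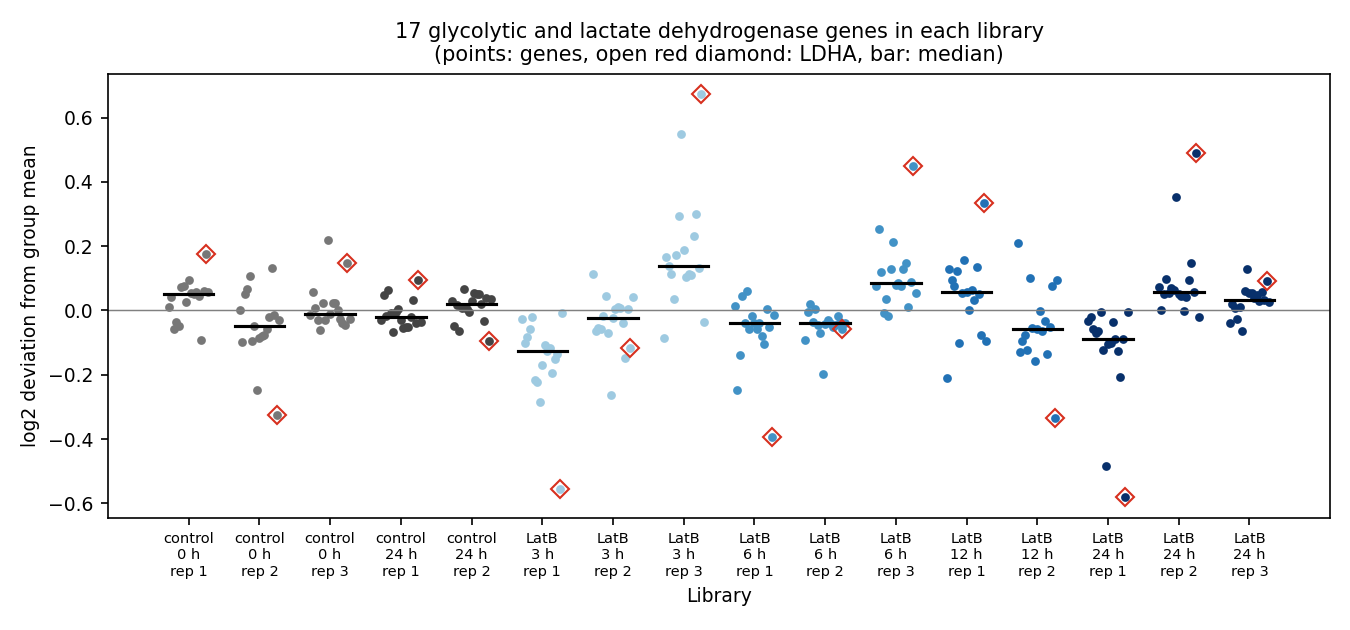
Log2 deviation from the group mean (vertical axis) of 17 glycolytic and lactate dehydrogenase genes (points, LDHA as an open red diamond) in each of the 16 libraries, with the median as a bar. The third LatB 3 h library has a median of 0.14 and the first LatB 3 h library -0.13, and LDHA is farther from 0 than the median in all 16 libraries.

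A wider list of 50 other genes of glucose metabolism, 41 of them tested, had 4 genes higher and 6 lower at 3 h, 13 and 7 at 6 h, 16 and 5 at 12 h and 15 and 6 at 24 h. In percent of those tested this was 9.76% higher and 14.6% lower at 3 h, beside 16.8% and 14.7% of all genes, 31.7% and 17.1% at 6 h beside 22.9% and 20.4%, 39.0% and 12.2% at 12 h beside 19.1% and 16.8%, and 36.6% and 14.6% at 24 h beside 21.9% and 18.8%. HKDC1, a hexokinase-like gene, fell by 1.11 ± 0.17 at 24 h (edgeR adjusted p = 0.000221), from 5.11 to 2.37 CPM. GAPDHS, the sperm form of GAPDH, fell by 1.303 ± 0.31 at 3 h (edgeR adjusted p = 0.00551) and by 1.53 ± 0.32 at 6 h (edgeR adjusted p = 0.00152), from 1.98 to 0.798 and 0.683 CPM.

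A list of 44 other hypoxia-response genes, 42 tested, had 13 higher and 2 lower at 3 h, 15 and 6 at 6 h, 7 and 7 at 12 h and 8 and 12 at 24 h. With the same shares of all genes beside them, these were 31.0% higher and 4.76% lower, then 35.7% and 14.3%, 16.7% and 16.7%, and 19.0% and 28.6%. The rises at 3 h included ANGPTL4, a secreted inhibitor of lipoprotein lipase, by 2.51 ± 0.23 (edgeR adjusted p = 4.34e-06; 4.54 to 25.9 CPM), BHLHE40, a circadian repressor, by 2.21 ± 0.30 (edgeR adjusted p = 9.45e-05), and RORA, a nuclear receptor, by 2.03 ± 0.15 (edgeR adjusted p = 7.08e-07; 24.0 to 98.0 CPM). IGFBP1, a binding protein of insulin-like growth factors, rose by 3.26 ± 0.41 at 3 h (edgeR adjusted p = 5.23e-05) and by 3.79 ± 0.41 at 6 h (edgeR adjusted p = 9.57e-06), from 0.242 to 2.36 and 3.40 CPM. RORA and BHLHE40 were back near control at 24 h, at 24.2 and 1.70 CPM.
IGFBP1 and IGFBP3, of the same family, were still higher at 24 h, by 1.66 ± 0.50 (edgeR adjusted p = 0.0168) and 1.23 ± 0.14 (edgeR adjusted p = 1.99e-05), as was CXCR4, a chemokine receptor, by 1.45 ± 0.21 (edgeR adjusted p = 0.000133). IGFBP1 was low at that time, at a mean of 0.622 CPM against 0.193 CPM in control 24 h. PPP1R3C, a glycogen-targeting phosphatase subunit, fell by 1.18 ± 0.28 at 3 h (edgeR adjusted p = 0.00607). HIF3A fell by 1.17 ± 0.21 at 6 h (edgeR adjusted p = 0.000563), and PPFIA4 by 1.55 ± 0.60 at 6 h (edgeR adjusted p = 0.0495). PPFIA4 was near the detection limit, at a mean of 0.967 CPM in control 0 h and 0.328 CPM at 6 h. LOX, a collagen cross-linking oxidase, rose by 1.73 ± 0.49 at 12 h (edgeR adjusted p = 0.0151), to 2.71 ± 2.5 CPM (SD, n = 2) with the stromal-rich library among the pair, and BHLHE41 and WSB1 fell at 24 h by 1.08 ± 0.28 and 1.01 ± 0.16 (edgeR adjusted p = 0.00742 and 0.000239).

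The same lists were counted between drug groups. From 6 h to 24 h, 13 other glucose genes were higher and 11 lower, and 5 and 21 of the other hypoxia genes, which is 31.7% and 26.8%, and 11.9% and 50.0%, beside 19% and 18.9% of all genes. From 3 h to 6 h the counts were 6 and 3, and 6 and 4, or 14.6% and 7.32%, and 14.3% and 9.52%, beside 11.9% and 10.3%. In the difference of the effects at 24 h and 3 h they were 7 and 3, and 1 and 9, or 17.1% and 7.32%, and 2.38% and 21.4%, beside 14.6% and 13.4%. RORA, BHLHE40 and ANGPTL4, still raised at 6 h by 2.03, 2.11 and 1.69, fell from 6 h to 24 h by 2.01, 2.33 and 1.31 (edgeR adjusted p from 8.08e-07 to 0.000545), and IGFBP1 fell by 2.43 ± 0.36. EPAS1, which encodes the HIF-2 alpha subunit, fell over that time by 1.498 ± 0.20 (edgeR adjusted p = 6.97e-05), from 134 to 47.5 CPM. PLOD2, a collagen lysyl hydroxylase, fell by 1.11 ± 0.12, INSIG2, a regulator of sterol synthesis, fell by 1.195 ± 0.12, BHLHE41 fell by 1.02 ± 0.26 and SLC16A7, the transporter MCT2, fell by 1.10 ± 0.16, while PPP1R3C rose by 1.22 ± 0.27 (edgeR adjusted p from 8.76e-06 to 0.00718). In the difference of effects, GPD2, the mitochondrial glycerol-phosphate dehydrogenase, had -1.01 ± 0.11 (edgeR adjusted p = 4.09e-05). Its means were 67.4 CPM at 3 h of LatB against 49.7 CPM in control 0 h, and 32.2 CPM at 24 h of LatB against 48 CPM in control 24 h. Differences past 1 in size were also called for HKDC1 (-1.22), PLOD2 (-1.07), BHLHE40 (-2.49), WSB1 (-1.198), ANGPTL4 (-1.53) and RORA (-2.01), and in the other direction for PPP1R3C (1.94). At 6 h and 12 h, IGFBP3 was higher by 1.296 and 1.01 and CXCR4 by 1.10 and 1.65, and IGFBP1 was higher by 2.52 at 12 h.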

How the data were processed

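Poly(A) RNA libraries (NEBNext kits, strand use in counting not stated in the sources used here) were quantified per transcript. The authors deposited, for each of 16 libraries, expected counts (estimated read counts) and TPM values per transcript, which their processing notes credit to Salmon 1.3.0 with build hg38; the study's methods describe another route, by STAR. A deposited table of their DESeq2 comparisons (log2 fold changes, errors and p-values), with 16 columns of per-sample values, was not used. Here the deposited counts were summed per gene over GENCODE transcripts (165533 of 177456 matched, leaving 2.92% to 3.17% of reads out) and rounded. edgeR 4.0.16 (quasi-likelihood, TMM scaling, filterByExpr, all 6 groups in 1 fit) gave log2 fold changes, with Benjamini-Hochberg adjustment over 16705 genes and a call at an adjusted p under 0.05. SE is the log2 fold change over the root of F. Levels between genes use deposited TPM. The scripts were tested on simulated data.

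The genes and lists were chosen with earlier results of these data known. All 38 genes were described; values per library were due for SLC2A1, SLC2A2, SLC2A3, HIF1A and genes called with a log2 change of at least 1, and those of HK1, HK2, PFKM, PFKFB3, ALDOC, GAPDH, LDHA, SLC16A3, VEGFA and KDM3A were added after their values were seen. Genes of the other lists were named if called with a log2 change of at least 1, except 1 that is not reported here. Alternatives were other scalings, filters, tools and references, an offset for transcript length, a replicate block, fits of the compared groups alone, and single libraries left out. Calls of single genes were followed through them for the members alone.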

Additional observations from a re-analysis of the deposited data

Results flagged for a closer look

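For 10 genes the effect at 24 h, against control 24 h, differed from that at 3 h, against control 0 h, by edgeR's test of the difference itself. The effect at 24 h was higher for SLC2A1 (by 0.92 on the log2 scale, edgeR adjusted p = 0.00979) and PFKM (0.43, edgeR adjusted p = 0.00411). It was lower for SLC2A2 (-1.80), SLC2A3 (-1.78), SLC16A3 (-1.304), NDRG1 (-1.07), VEGFA (-0.77, edgeR adjusted p = 0.0107), PFKFB3 (-0.68, edgeR adjusted p = 0.0328), KDM3A (-0.27, edgeR adjusted p = 0.038) and EGLN1 (-0.23, edgeR adjusted p = 0.0328). The comparisons use different controls, and the one at 3 h has no control of its own time. Drug and elapsed time cannot be told apart there, so a change in the effect of LatB itself is not established. Only the calls for PFKM and SLC2A3 were kept in every alternative run.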

How the results depend on the processing

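Of 98 member results called, 42 kept the call in every alternative, 56 lost it in at least 1 and 0 changed direction. The number of members called at 3 h was 16, and 10 with no scaling and 6 with limma-trend on log2(TPM + 1). At 6 h it was 19, and 11 with limma-trend. At 12 h it was 13, and 7 when the fit held the control 0 h and LatB 12 h libraries alone. Leaving out 1 library gave 7 to 17 at 3 h, 12 to 19 at 6 h, 9 to 14 at 12 h, 10 to 19 at 24 h, 0 to 0 between the controls, 5 to 8 for 6 h against 3 h, 12 to 14 for 24 h against 6 h and 2 to 10 for the difference of effects. The cause of these shifts was not tested.

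With the replicate number as a block the counts were 16, 21, 13 and 18 at 3, 6, 12 and 24 h, 0 between the controls, 8 and 14 between drug groups and 12 for the difference of effects. Over 36 pairs of same-numbered libraries, r of the deviations from group means ran from -0.365 to 0.181 and was over 0.1 in 9. Deviations from a mean of 2 or 3 libraries are tied to each other, so these values cannot show whether the numbers pair the libraries. With 2 or 3 libraries a group, genes of few reads such as SLC2A2 and ALDOC are the least precise.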
